A study of Mus musculus with 8 samples.

Results

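Autophagy delivers cytoplasmic material, damaged organelles and invading bacteria to the lysosome. The 36 genes described here encode its core machinery and 4 of its cargo receptors, and they were followed in red pulp macrophages, the spleen macrophages that engulf worn-out red cells and return their iron. The genes were chosen by name: 36 listed mouse symbols were looked up among the Ensembl gene rows of the count table, and all 36 were found among its 55414 rows and among the 14004 rows with enough reads to test. RNA was sequenced from red pulp macrophages that were sorted by flow cytometry from spleens of WT C57BL/6J mice, in 4 libraries taken 2 h after CLP (cecal ligation and puncture, which lets gut contents leak into the abdomen and is used as a model of sepsis) and 4 taken 2 h after Sham surgery, in which no CLP was done. Neither group carries a transgene or a drug treatment in the labels. The sources used here do not give the age or sex of the mice, the sorting gate, or whether each library came from its own mouse. The p-values therefore measure only how far these libraries spread, and some of that spread may be technical.

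Autophagy begins when the ULK kinases with ATG13, ATG101 and the scaffold FIP200 start a membrane site, where the class III PI3-kinase with Beclin 1 then makes the lipid PI3P. WIPI proteins read that lipid, ATG9A and ATG2 supply membrane lipid, and a ubiquitin-like enzyme chain couples the ATG8 proteins (the LC3 and GABARAP families) to the growing membrane, where receptors such as p62 tie cargo to them. In macrophages part of the same machinery also couples LC3 to phagosomes that hold engulfed cells or microbes, a process called LC3-associated phagocytosis.

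Each CLP library held 17333748 to 21409078 counts and each Sham library 15392992 to 25665633, so that 1 CPM (counts of a gene per 1000000 counts of the TMM-scaled library total, the unit used below) rests on 15.1 to 27.6 reads. Summed markers of red pulp macrophages reached 32900 to 37500 CPM in CLP and 28400 to 35300 CPM in Sham, with 4 of 8 markers called higher and 1 lower, so the label fits the RNA. Several marker lists of other cells moved with the groups. Platelet and megakaryocyte markers summed to 18.1 to 22.6 CPM in CLP and 6.80 to 7.95 CPM in Sham (3 of 4 tested called higher), neutrophil markers to 10.1 to 27.3 CPM in CLP and 2.96 to 13.2 CPM in Sham (2 of 3 higher), and marginal zone and white pulp macrophage markers to 631 to 1060.0 CPM in CLP and 464 to 541 CPM in Sham (2 of 4 higher). Plasma cell markers summed to 591 to 748 CPM in CLP and 83.1 to 170.0 CPM in Sham (2 of 3 higher). Most of this was Prdm1, at 540 to 729 CPM in CLP and 64.1 to 144 CPM in Sham. Jchain overlapped between the groups, at 12.6 to 47.4 CPM in CLP and 18.2 to 40.5 CPM in Sham. Sdc1 was at 0.728 to 2.69 CPM in CLP and 0.165 to 0.796 CPM in Sham, and Mzb1 did not exceed 0.411 CPM. Erythroid markers summed to 678 to 1180.0 CPM in CLP and 259 to 1280.0 CPM in Sham (2 of 5 higher). Monocyte markers summed to 19.0 to 24.6 CPM in CLP and 16.1 to 19.3 CPM in Sham (1 of 5 higher), dendritic cell markers to 35.9 to 45.3 CPM in CLP and 29.6 to 41.1 CPM in Sham (1 of 5 higher, 1 lower), and stroma and endothelium markers to 478 to 509 CPM in CLP and 390.0 to 493 CPM in Sham (2 of 4 higher). Nearly all of the stroma and endothelium sum was Pecam1, at 466 to 496 CPM in CLP and 385 to 486 CPM in Sham. Cdh5, Col1a1 and Col3a1 did not exceed 6.75 CPM in any library. B cell markers summed to 111 to 184 CPM in CLP and 118 to 206 CPM in Sham (1 of 6 lower), and T and NK cell markers to 19.8 to 49.9 CPM in CLP and 20.2 to 32.8 CPM in Sham (1 of 7 lower). No marker was at 0 in all 8 libraries, but Ly6g, Camp, Gp1bb and Dcn did not exceed 0.205 CPM in any. In CLP the neutrophil sum came mostly from S100a8 and S100a9. Mpo and Elane reached 5.01 and 0.816 CPM in Sham, against 0.199 and 0.0641 CPM in CLP. The part of these other cells in the results below was not tested. In such bulk samples, fewer cells of a type and less RNA per cell cannot be told apart.

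The 2 members with the largest changes in opposite directions were the receptor gene Sqstm1 and the inhibitor gene Rubcn, and Atg14, a lipid kinase subunit gene, fell as Rubcn did. Their promoter windows are shown with the motifs found in them, and Rubcn and Atg14 hold the same motif. Of the 2 Rubcn windows, only the one shown had a match to any motif searched. Pik3c3 fell slightly more than Atg14 (log2 fold change -0.98 against -0.97) but had no window at hand. Whether the shared motif has any part in these falls was not tested. Each window runs from 250 bases before to 50 bases after the annotated start in RefSeq on GRCm38.p6, in the direction of transcription: chr11:50210771-50211070 on the minus strand for Sqstm1, chr16:32868317-32868616 on the minus strand for 1 of the 2 Rubcn starts, and chr14:47568385-47568684 on the minus strand for Atg14. Capitals mark an NF-kB decamer in Sqstm1 and the E-box CACGTG in Rubcn and Atg14.
Sqstm1: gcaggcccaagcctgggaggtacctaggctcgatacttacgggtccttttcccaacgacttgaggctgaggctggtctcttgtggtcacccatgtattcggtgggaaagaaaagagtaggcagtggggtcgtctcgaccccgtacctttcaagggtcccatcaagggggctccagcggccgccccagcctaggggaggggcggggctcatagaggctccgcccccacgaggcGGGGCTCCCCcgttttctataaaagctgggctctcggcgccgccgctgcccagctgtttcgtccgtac
Rubcn: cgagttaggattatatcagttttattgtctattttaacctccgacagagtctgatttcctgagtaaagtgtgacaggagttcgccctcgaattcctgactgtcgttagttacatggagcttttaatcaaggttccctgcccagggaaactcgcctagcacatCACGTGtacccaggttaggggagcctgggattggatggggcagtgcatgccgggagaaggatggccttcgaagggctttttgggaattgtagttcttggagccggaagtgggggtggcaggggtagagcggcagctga
Atg14: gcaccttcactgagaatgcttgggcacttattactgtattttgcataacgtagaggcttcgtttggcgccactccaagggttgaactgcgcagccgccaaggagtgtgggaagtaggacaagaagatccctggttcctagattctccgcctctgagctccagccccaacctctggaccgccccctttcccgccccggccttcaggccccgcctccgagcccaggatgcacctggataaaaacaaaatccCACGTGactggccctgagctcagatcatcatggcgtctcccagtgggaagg
The Sqstm1 window has 63.3% GC and 20 CpG, the Rubcn window 51.3% and 11, and the Atg14 window 57.7% and 13. The NF-kB decamer of Sqstm1 lies at bases -18 to -9 from the start, the E-box of Rubcn at -88 to -83 and that of Atg14 at -1 to 5. Windows were at hand for 30 of the 36 members, and 4 motifs were searched on both strands. The E-box, which TFEB and other factors can bind, stood in the windows of 5 of the 30 members (16.7%: Atg14, Rubcn, Atg3, Atg5 and Atg7), beside 8.09% of all 27025 genes. The antioxidant response element, searched as TGACNNNGC, was in 3 (10.0%: Atg13, Map1lc3b and Ulk2, beside 14.0% of all genes), the NF-kB decamer only in Sqstm1 (3.33%, beside 7.81%) and the FOXO core TGTTTAC in 0 (beside 4.05%). The 5 genes with an E-box went different ways, with Atg14, Rubcn and Atg5 lower, Atg7 higher and Atg3 not called, and such a match does not show that a factor binds there.

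Across the whole set, 23 of 36 members (63.9%) passed an adjusted p of 0.05 in edgeR's quasi-likelihood test, against 43.3% of all 14004 genes tested. In CLP 10 were higher (27.8%, beside 19.8% of all genes) and 13 lower (36.1%, beside 23.5%). Most changes were modest: only Sqstm1 and Rubcn passed with a change of at least 2-fold (5.56% of members, beside 14.7% of all genes), and the median absolute log2 fold change was 0.31 over the members and 0.36 over all genes. The CPM of the CLP and Sham libraries did not overlap for 21 members (58.3%, beside 41.5% of all genes), and these were the called ones other than Atg16l1 and Gabarapl1. Replicates were close, with a median coefficient of variation of 10.2% in CLP and 7.86% in Sham over the members, against 15.9% in CLP and 11.7% in Sham over all genes. Sham library 4 stood farthest from its group and was the highest Sham library for 17 of the 36 members, and without it each of the 36 kept its call or lack of one.

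**Figure D1:**
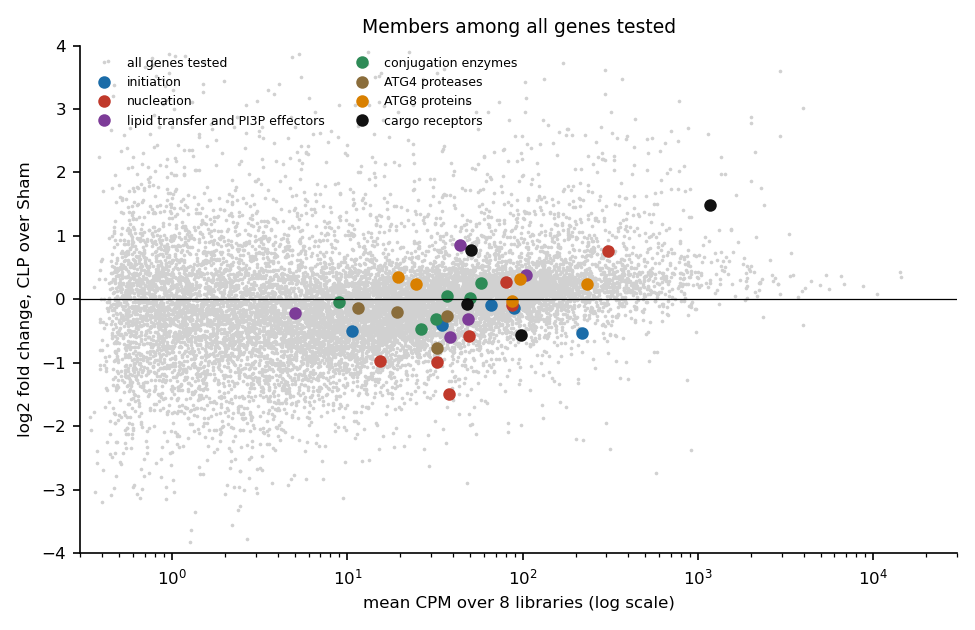
Log2 fold change (CLP over Sham, vertical axis, TMM scaling) against mean CPM on a log axis for all 14004 genes tested, in grey, with the 36 autophagy members in colour. The members lie between -1.49 and 1.49, with Sqstm1 the highest and Rubcn the lowest, and 43 genes beyond ±4 are not drawn.

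How libraries are scaled decides a part of these calls. TMM factors lay at 0.873 to 0.915 for CLP libraries and 1.08 to 1.15 for Sham libraries. Using library totals in their place moved the median log2 fold change of all genes by -0.32. With library totals 4 members were higher (11.1%, beside 9.18% of all genes) and 23 lower (63.9%, beside 46.0%). Uvrag, Atg9a, Sqstm1 and Optn were higher with both scalings. All 13 members that were lower with TMM stayed lower. Becn1, Atg2a, Atg7, Gabarap, Gabarapl1 and Gabarapl2 were higher with TMM only. Another 10 members, Ulk1, Rb1cc1, Ambra1, Atg3, Atg10, Atg12, Atg4b, Atg4d, Map1lc3b and Calcoco1, were lower with library totals and not called with TMM. Wipi1, Atg4a and Map1lc3a were called with neither. Values below use TMM unless library totals are named, and each fold change is CLP over Sham.

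**Figure D2:**
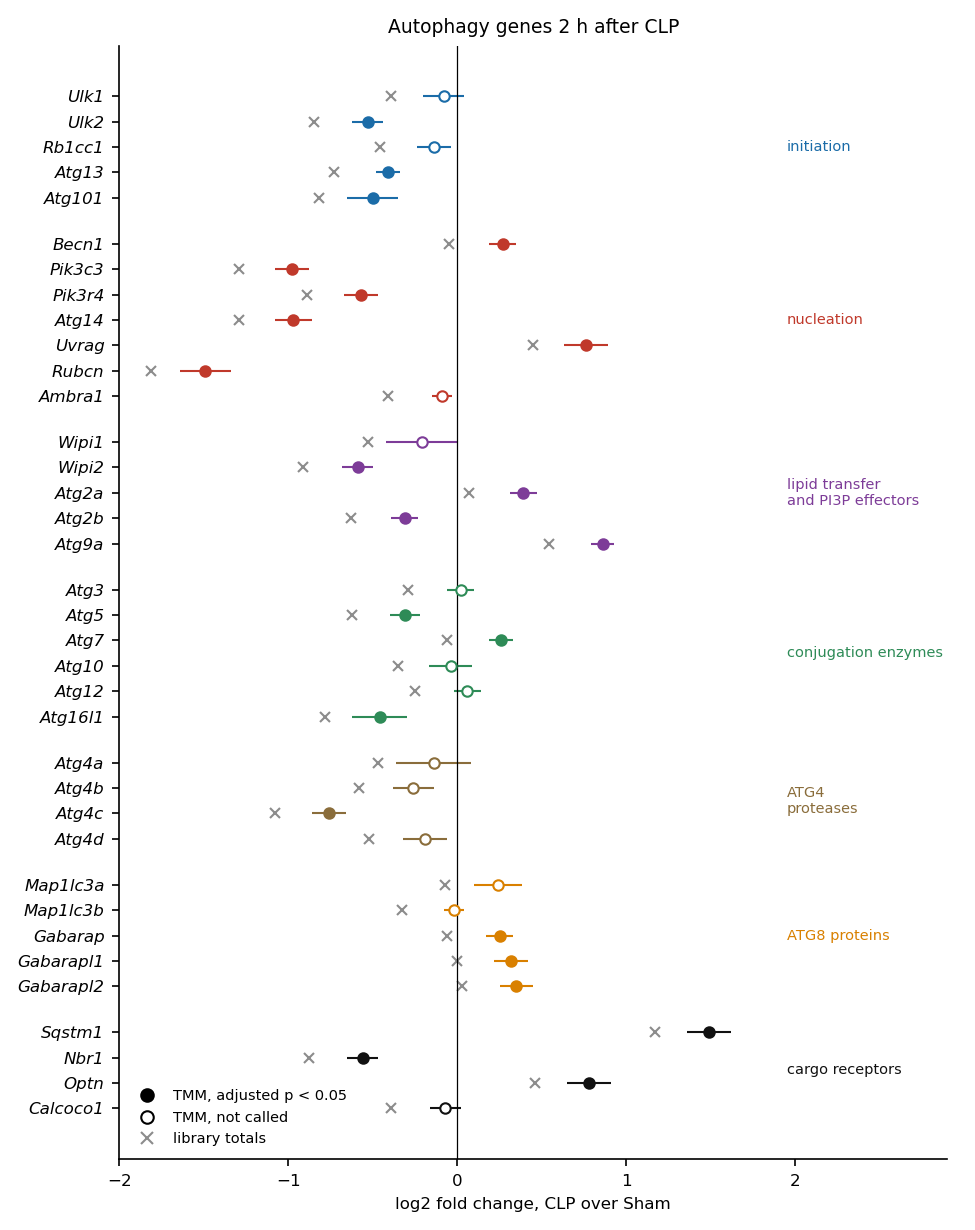
Log2 fold change of the 36 members (CLP over Sham) with its standard error, grouped by role, with TMM scaling and with library totals. Sqstm1 stands at 1.49 and Rubcn at -1.49 with TMM, and library totals shift every member by -0.33 to -0.31.

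The cargo receptors held the largest rise. Sqstm1 had 1740.3, 1508, 1567 and 2041 CPM in CLP libraries 1 to 4, against 658, 633, 669 and 481 CPM in Sham libraries 1 to 4. Sqstm1 encodes p62, which binds ubiquitin-marked cargo and also serves as a signalling scaffold. Every CLP library was more than 2 times every Sham library, and Sham library 4 was the lowest (log2 fold change 1.49, SE 0.13, adjusted p = 8.52e-06, a 2.81-fold rise; 1.17 with library totals). Optn had 53.2, 54.1, 76.7 and 73.6 CPM in CLP libraries 1 to 4, against 34.4, 38.1, 37.00 and 40.2 CPM in Sham libraries 1 to 4. Optineurin, its product, is a receptor for damaged mitochondria and cytosolic bacteria, and the groups did not overlap although CLP libraries 3 and 4 were well above 1 and 2 (log2 fold change 0.78, SE 0.13, adjusted p = 0.000517; 0.46 with library totals). Nbr1 had 74.05, 88.2, 73.8 and 80.01 CPM in CLP libraries 1 to 4, against 110.0, 117, 106 and 132 CPM in Sham libraries 1 to 4. NBR1 works beside p62 in cargo clusters, and its RNA moved the other way, with every CLP library below every Sham library (log2 fold change -0.56, SE 0.09, adjusted p = 0.000479). Calcoco1 had 53.7, 47.8, 43.2 and 42.4 CPM in CLP libraries 1 to 4, against 48.7, 48.5, 47.1 and 51.7 CPM in Sham libraries 1 to 4. Calcoco1, whose product is a receptor for endoplasmic reticulum and Golgi, overlapped between the groups and did not pass (log2 fold change -0.07, adjusted p = 0.568; -0.39, adjusted p = 0.00492 with library totals).

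Per kilobase of exon, Sqstm1 was the most abundant of all 36 members, at 511 ± 71.3 CPM per kb in CLP and 182 ± 26.1 CPM per kb in Sham. It made up 93.2% ± 0.83 of the summed receptor level in CLP and 83.4% ± 3.25 in Sham. Nbr1 held 2.13% ± 0.370 in CLP and 7.93% ± 1.77 in Sham, Optn 3.15% ± 0.629 in CLP and 4.65% ± 0.845 in Sham, and Calcoco1 1.51% ± 0.267 in CLP and 3.99% ± 0.648 in Sham (SD, n = 4 each). Optn thus rose in level, while its mean share of the 4 receptors was lower in CLP. Exons of Sqstm1 and Mrnip overlap on opposite strands over 580 bases, but Mrnip had 187 reads in all libraries against 172851 for Sqstm1.

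**Figure D3:**
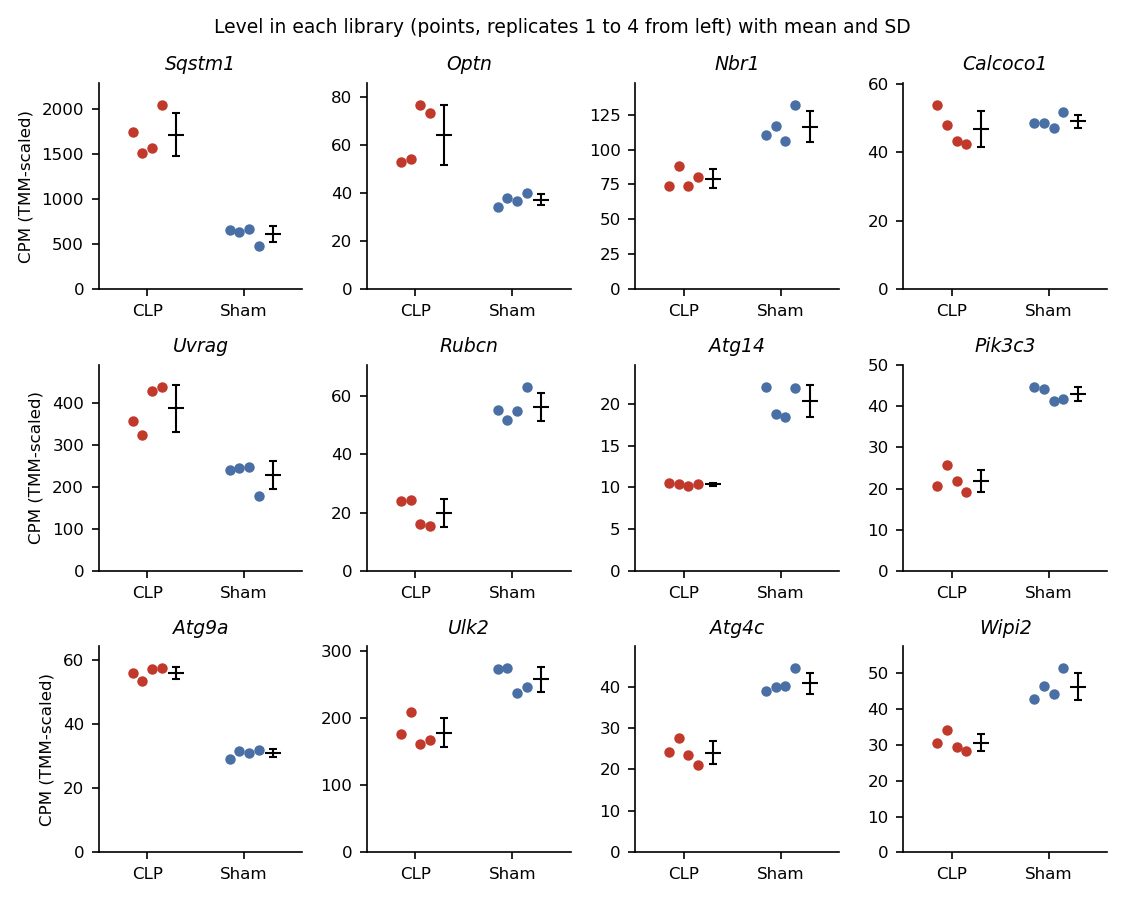
CPM of each library (vertical axes from 0, points for replicates 1 to 4) for 12 members, with CLP left of Sham and the mean ± SD (n = 4) beside the points of each group. The points of Calcoco1 mix between the groups, while those of every other gene drawn are fully apart.

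Among the initiation genes 3 of 5 fell and 0 rose in edgeR, beside 23.5% lower and 19.8% higher of all genes, with a median log2 fold change of -0.41. With library totals each of the 5 was lower, beside 46.0% of all genes. None of the 5 was higher at an unadjusted p under 0.05, nor in DESeq2 or limma-voom. Ulk2 had 176, 209, 161 and 168 CPM in CLP libraries 1 to 4, against 274, 275, 238 and 246 CPM in Sham libraries 1 to 4. Ulk2 encodes a kinase that starts autophagy and was the most abundant of this role per kilobase, at 29.9 ± 3.56 CPM per kb in CLP and 43.2 ± 3.19 CPM per kb in Sham. All CLP libraries were below all Sham libraries (log2 fold change -0.53, SE 0.09, adjusted p = 0.000868). Its sister kinase gene Ulk1 averaged 64.4 ± 10.6 CPM in CLP and 67.9 ± 6.42 CPM in Sham and did not pass (log2 fold change -0.08, adjusted p = 0.633), though it was lower with library totals (-0.39, adjusted p = 0.0198). Atg101 had 6.79, 7.87, 10.6 and 10.1 CPM in CLP libraries 1 to 4, against 11.4, 12.8, 12.9 and 12.95 CPM in Sham libraries 1 to 4. The groups of Atg101, which with ATG13 forms the adaptor of the kinase complex, lie next to each other (log2 fold change -0.50, SE 0.15, adjusted p = 0.0213), and the call ended with any 1 of CLP replicates 1 and 2 or Sham replicates 2 and 3 left out (highest adjusted p = 0.0593). Atg13 averaged 29.7 ± 1.36 CPM in CLP and 39.5 ± 0.813 CPM in Sham (log2 fold change -0.41, SE 0.07, adjusted p = 0.00091). Rb1cc1, the gene of FIP200, averaged 84.3 ± 9.92 CPM in CLP and 93.05 ± 8.65 CPM in Sham and did not pass (log2 fold change -0.14, adjusted p = 0.281; -0.46, adjusted p = 0.00488 with library totals).

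The class III PI3-kinase genes split by subunit, with 2 of 7 higher and 4 lower (28.6% and 57.1%, beside 19.8% and 23.5% of all genes) and a median of -0.57. The genes of the catalytic subunit, its scaffold, ATG14 and Rubicon fell. Pik3c3 had 20.7, 25.7, 21.8 and 19.2 CPM in CLP libraries 1 to 4, against 44.8, 44.2, 41.3 and 41.8 CPM in Sham libraries 1 to 4. Pik3c3 encodes VPS34, the lipid kinase itself, and no CLP library came near the Sham range (log2 fold change -0.98, SE 0.10, adjusted p = 2.21e-05). Pik3r4 had 39.7, 46.4, 36.1 and 36.8 CPM in CLP libraries 1 to 4, against 61.9, 62.3, 52.03 and 60.7 CPM in Sham libraries 1 to 4. Pik3r4 encodes VPS15, the partner that holds the kinase, and the groups were apart although Sham library 3 was lowest of its group (log2 fold change -0.57, SE 0.10, adjusted p = 0.000761). Atg14 had 10.6, 10.4, 10.1 and 10.5 CPM in CLP libraries 1 to 4, against 22.1, 18.8, 18.5 and 21.9 CPM in Sham libraries 1 to 4. Atg14 targets the kinase to the sites where autophagosomes form, and its CLP libraries differed among themselves by less than 1 CPM (log2 fold change -0.97, SE 0.11, adjusted p = 3.85e-05). Rubcn had 24.02, 24.3, 16.2 and 15.6 CPM in CLP libraries 1 to 4, against 55.3, 51.7, 54.9 and 63.3 CPM in Sham libraries 1 to 4. Rubicon, its product, restrains the kinase complex that acts on endosomes in autophagy and is needed for LC3-associated phagocytosis, and CLP libraries 3 and 4 were the lowest of all 8 (log2 fold change -1.49, SE 0.15, adjusted p = 3.13e-05, 2.81-fold lower). Rubcn shares 171 exon bases with Fyttd1 on the other strand, whose own log2 fold change was 0.03 (adjusted p = 0.781).

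Uvrag and Becn1 went up. Uvrag had 356, 324, 428 and 438 CPM in CLP libraries 1 to 4, against 240.2, 245, 248 and 177 CPM in Sham libraries 1 to 4. UVRAG takes the place of ATG14 in the endosomal form of the complex, and Sham library 4 was far below the other 3 Sham libraries (log2 fold change 0.76, SE 0.13, adjusted p = 0.000716; 0.45 with library totals). Beclin 1 is common to both forms, and Becn1 averaged 88.3 ± 8.71 CPM in CLP and 73.1 ± 3.93 CPM in Sham (log2 fold change 0.27, SE 0.08, adjusted p = 0.0206). Leaving out CLP replicate 4 ended the Becn1 call (adjusted p = 0.0648), and with library totals its log2 fold change was -0.05, adjusted p = 0.666. Ambra1, a Beclin 1 partner, averaged 83.7 ± 3.08 CPM in CLP and 88.9 ± 3.06 CPM in Sham and did not pass (log2 fold change -0.09, adjusted p = 0.294; -0.41, adjusted p = 0.000444 with library totals).

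Of the 5 genes for lipid transfer and PI3P reading, 2 rose and 2 fell (40% each way, beside the same 19.8% and 23.5%). Atg9a had 56.2, 53.5, 57.3 and 57.6 CPM in CLP libraries 1 to 4, against 29.3, 31.7, 31.1 and 31.99 CPM in Sham libraries 1 to 4. Atg9a, whose product moves lipids between the leaflets of the membrane, varied little within either group (log2 fold change 0.86, SE 0.07, adjusted p = 6.83e-06; 0.54 with library totals). Atg2a had 121, 132, 109.7 and 114 CPM in CLP libraries 1 to 4, against 88.2, 97.5, 89.5 and 88.03 CPM in Sham libraries 1 to 4. The bridge-like lipid transfer gene Atg2a rose less, and Sham library 2 was above the other Sham libraries (log2 fold change 0.39, adjusted p = 0.00165; 0.07, adjusted p = 0.455 with library totals). Its paralog Atg2b averaged 43.6 ± 1.63 CPM in CLP and 54.1 ± 4.28 CPM in Sham and fell (log2 fold change -0.31, adjusted p = 0.00784). Atg2b shares 383 exon bases with Gskip on the other strand, which had 2001 reads against 8067 and fell as well (-0.48, adjusted p = 0.0102). Wipi2 had 30.5, 34.00, 29.5 and 28.4 CPM in CLP libraries 1 to 4, against 42.7, 46.5, 44.3 and 51.4 CPM in Sham libraries 1 to 4. WIPI2 brings ATG16L1 to the PI3P-marked membrane, and its RNA was lower in every CLP library (log2 fold change -0.59, SE 0.09, adjusted p = 0.000327). Wipi1 was the least abundant member per kilobase, at 1.06 ± 0.0925 CPM per kb in CLP and 1.22 ± 0.340 CPM per kb in Sham, and did not pass (log2 fold change -0.21, adjusted p = 0.447).

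The conjugation enzymes moved little, between -0.46 and 0.26, with 1 of 6 higher and 2 lower (16.7% and 33.3%, beside 19.8% and 23.5% of all genes). Atg3 had 47.9, 48.01, 49.4 and 55.5 CPM in CLP libraries 1 to 4, against 50.5, 45.9, 52.8 and 48.2 CPM in Sham libraries 1 to 4. Atg3, the enzyme that hands ATG8 to the lipid, overlapped throughout (log2 fold change 0.02, adjusted p = 0.827), and library totals made it lower (-0.29, adjusted p = 0.00712). Atg7, which activates both ubiquitin-like proteins, averaged 62.96 ± 3.26 CPM in CLP and 52.6 ± 0.925 CPM in Sham and rose with TMM (log2 fold change 0.26, adjusted p = 0.00951), but not with library totals (-0.06, adjusted p = 0.472). Atg5 and Atg16l1, which form the coupling complex with ATG12, fell. Atg5 averaged 28.7 ± 2.18 CPM in CLP and 35.4 ± 2.15 CPM in Sham (log2 fold change -0.31, adjusted p = 0.0148, lost when Sham replicate 1 or 3 was left out, highest adjusted p = 0.0691). Atg16l1 averaged 22.1 ± 5.05 CPM in CLP and 30.4 ± 4.43 CPM in Sham (log2 fold change -0.46, adjusted p = 0.0364), and its call ended when CLP replicate 1, 2 or 4 was left out, or Sham replicate 2 or 3 (highest adjusted p = 0.115). Atg10 and Atg12 had log2 fold changes of -0.04 (adjusted p = 0.844) and 0.06 (adjusted p = 0.546).

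Of the 4 ATG4 protease genes Atg4c alone was called, and it was lower (25%, near the 23.5% of all genes). In edgeR 0 were higher (beside 19.8% of all genes), also at an unadjusted p under 0.05, in DESeq2 and in limma-voom. The ATG4 proteases trim new ATG8 proteins and release them from membranes again. Atg4c had 24.1, 27.6, 23.6 and 21.04 CPM in CLP libraries 1 to 4, against 38.9, 39.9, 40.02 and 44.4 CPM in Sham libraries 1 to 4. No CLP library reached the lowest Sham library (log2 fold change -0.76, SE 0.10, adjusted p = 0.000108). Atg4a, Atg4b and Atg4d had log2 fold changes of -0.14 (adjusted p = 0.64), -0.26 (adjusted p = 0.1) and -0.19 (adjusted p = 0.273). Without CLP replicate 3, which had the highest Atg4b of its group, Atg4b was called lower (adjusted p = 0.0104). Atg4d shares 1405 exon bases with Kri1 on the other strand, which had 3456 reads against 3156 for Atg4d, and their reads cannot be told apart if strand was not used in counting.

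All 3 GABARAP genes rose slightly and both LC3 genes did not pass. So 3 of 5 ATG8 genes were higher and 0 lower in edgeR (60% and 0%, beside 19.8% and 23.5% of all genes). Also at an unadjusted p under 0.05, in DESeq2 and in limma-voom, 0 were lower. With library totals 0 of the 5 were higher and 1 lower, beside 9.18% and 46.0% of all genes. Gabarap had 264, 245, 234 and 269 CPM in CLP libraries 1 to 4, against 232, 195, 202 and 218 CPM in Sham libraries 1 to 4. Gabarap was the most abundant ATG8 gene per kilobase, at 137 ± 8.75 CPM per kb in CLP and 115 ± 8.97 CPM per kb in Sham, and the CLP libraries exceeded all Sham libraries by a small margin (log2 fold change 0.25, SE 0.08, adjusted p = 0.0216). Gabarapl1 had 115, 107, 89.01 and 114 CPM in CLP libraries 1 to 4, against 96.1, 78.5, 85.8 and 81.2 CPM in Sham libraries 1 to 4. CLP library 3 lay within the range of the Sham libraries (log2 fold change 0.32, SE 0.10, adjusted p = 0.0213). Gabarapl2 had 22.5, 22.2, 20.6 and 22.1 CPM in CLP libraries 1 to 4, against 17.9, 16.5, 15.4 and 18.8 CPM in Sham libraries 1 to 4. Every CLP library was above every Sham library (log2 fold change 0.35, SE 0.10, adjusted p = 0.0135). Without CLP replicate 1 or 4 or Sham replicate 2, the calls of Gabarap and Gabarapl1 were lost (adjusted p up to 0.067 for Gabarap and 0.0652 for Gabarapl1), and with library totals all 3 changes came to between -0.06 and 0.03 without a call.

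Map1lc3b had 84.2, 88.3, 84.7 and 88.01 CPM in CLP libraries 1 to 4, against 86.4, 89.2, 86.1 and 87.2 CPM in Sham libraries 1 to 4. Map1lc3b, the gene of LC3B on which most autophagy assays rest, hardly varied across all 8 libraries (log2 fold change -0.02, SE 0.06, adjusted p = 0.86), and scaling by library totals put it lower (-0.33, adjusted p = 0.00108). Map1lc3a had 29.8, 29.5, 22.4 and 25.7 CPM in CLP libraries 1 to 4, against 26.02, 25.8, 20.4 and 18.4 CPM in Sham libraries 1 to 4. The groups of Map1lc3a mixed (log2 fold change 0.24, adjusted p = 0.177). As shares of the summed ATG8 level per kilobase, Gabarap held 58.7% ± 1.40 in CLP and 58.8% ± 1.68 in Sham, Gabarapl1 22.6% ± 1.03 in CLP and 21.7% ± 0.936 in Sham, Map1lc3a 9.73% ± 0.920 in CLP and 9.82% ± 1.59 in Sham, Map1lc3b 4.93% ± 0.351 in CLP and 5.96% ± 0.438 in Sham, and Gabarapl2 4.03% ± 0.160 in CLP and 3.78% ± 0.296 in Sham (SD, n = 4 each). The ATG8 makeup was thus close in both groups, with the Map1lc3b share lower in every CLP library other than CLP library 3, which at 5.36% was just above Sham library 1 at 5.35%. How reads that match several ATG8 copies were counted is not stated, and gene lengths come from an older annotation, so shares between copies are uncertain to that extent.

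Ratios of related genes within a library do not depend on the scaling. Of 11 such pairs 6 did not overlap between the groups, each with a two-sided exact permutation p of 0.0286, the smallest that 70 assignments of 8 libraries allow. Adjusted over the 11 pairs this became 0.0524, so 0 passed 0.05. At this smallest p no pair could pass on its own, however wide its gap, so the failure says little about any pair. How often the ratios of other gene pairs separate was not computed, and 41.5% of all single genes did not overlap. The log2 ratio of Sqstm1 to Nbr1 was 4.55, 4.09, 4.41 and 4.67 in CLP libraries 1 to 4, against 2.58, 2.44, 2.65 and 1.87 in Sham libraries 1 to 4, a difference of 2.05. The ratio of Atg14 to Uvrag, which belong to alternative forms of the lipid kinase, was -5.07, -4.96, -5.39 and -5.38 in CLP and -3.44, -3.70, -3.74 and -3.02 in Sham, a difference of -1.73. These were the widest gaps. In both pairs, and in Atg2a to Atg2b, one gene was already higher and the other lower without overlap. Their ratios therefore had to separate and add no further evidence. Atg2a to Atg2b averaged 1.45 ± 0.07 in CLP and 0.75 ± 0.12 in Sham, and Ulk1 to Ulk2 averaged -1.48 ± 0.10 in CLP and -1.93 ± 0.13 in Sham (SD, n = 4 each). Atg4c to Atg4d averaged 0.42 ± 0.27 in CLP and 1.00 ± 0.17 in Sham, and Map1lc3b to Gabarapl2 1.98 ± 0.06 in CLP and 2.35 ± 0.13 in Sham (SD, n = 4 each). The other 5 pairs overlapped, with differences of 0.42 for Wipi1 to Wipi2 (exact p = 0.0571), 0.27 for Map1lc3a to Map1lc3b (exact p = 0.143), 0.15 for Atg4a to Atg4b (exact p = 0.486), -0.10 for Gabarap to Gabarapl2 (exact p = 0.171) and -0.04 for Gabarapl1 to Gabarapl2 (exact p = 0.686), which does not show that they are alike.

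**Figure D4:**
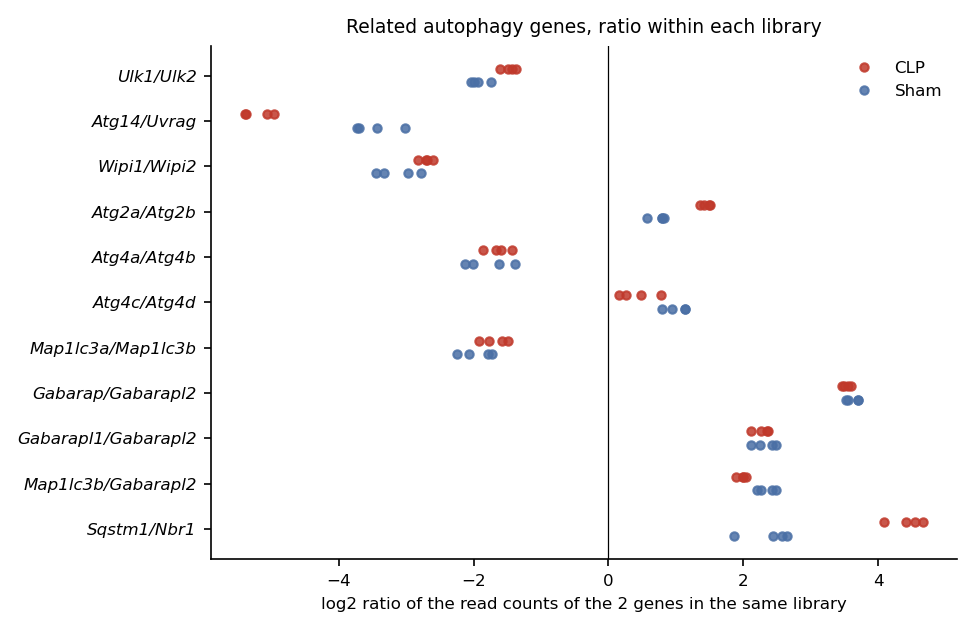
Log2 ratio of the read counts of 2 related genes in the same library for 11 pairs, with CLP points drawn above Sham points in each row. Atg14 to Uvrag and Sqstm1 to Nbr1 show the widest gaps between the groups, at -1.73 and 2.05, and the Gabarap to Gabarapl2 points mix.

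Genes that work around the members were read from 4 further lists of 57 genes, of which 55 could be tested (Atg9b and Prkaa2 had too few reads). Of these 11 rose (20%) and 14 fell (25.5%), near the 19.8% and 23.5% of all genes. Library totals gave 7 higher and 34 lower, beside 9.18% and 46.0% of all genes. DESeq2 gave 12 higher and 10 lower of these, and 3117 higher and 3133 lower over all genes. It filtered genes in its own way, so no share over all genes is given for it. Among other autophagosome formation genes 3 of 13 rose and 5 fell (23.1% and 38.5%, beside 19.8% and 23.5% of all genes). DESeq2 called only 2 of the 5 lower. Ei24, Trappc8 and Rab33b, named after their values were seen, lost the call there (adjusted p = 0.109, 0.0507 and 0.065) and when any of several single libraries was left out (highest adjusted p = 0.177, 0.0868 and 0.124), each Sham library among them. Nrbf2, a subunit of the ATG14 form of the lipid kinase, averaged 32.2 ± 7.12 CPM in CLP and 17.5 ± 0.804 CPM in Sham (log2 fold change 0.88, adjusted p = 0.000553), and Zfyve1, which encodes the PI3P-binding protein DFCP1, averaged 40.1 ± 3.10 CPM in CLP and 64.4 ± 3.82 CPM in Sham (log2 fold change -0.68, adjusted p = 6.77e-05). Sh3glb1, which encodes the UVRAG partner Bif-1 and had the highest CPM of the list, though not per kilobase, where Vmp1 was higher (66.8 CPM per kb against 55.6 over all 8 libraries), averaged 499 ± 11.9 CPM in CLP and 331 ± 10.3 CPM in Sham (log2 fold change 0.59, adjusted p = 3.17e-05).

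In the fusion list 3 of 14 rose and 5 fell (21.4% and 35.7%, beside 19.8% and 23.5% of all genes). DESeq2 called 4 of the 5 lower, without Vps11 (adjusted p = 0.119). Vps11 was named after its value was seen. Its call was also lost when CLP replicate 1, 2 or 4 or any 1 Sham library was left out. Rubcnl, the gene of Pacer, which in human cells counters Rubicon, averaged 72.6 ± 18.4 CPM in CLP and 38.9 ± 5.45 CPM in Sham (log2 fold change 0.90, adjusted p = 0.00284), opposite in direction to Rubcn. The SNARE gene Stx17 and the tethering gene Vps33a fell. Stx17 averaged 14.1 ± 0.474 CPM in CLP and 22.95 ± 1.89 CPM in Sham (log2 fold change -0.70, adjusted p = 0.000191), and Vps33a averaged 48.1 ± 1.08 CPM in CLP and 67.6 ± 4.04 CPM in Sham (log2 fold change -0.49, adjusted p = 0.000231). Rab7, the late endosome GTPase, averaged 235 ± 6.22 CPM in CLP and 182 ± 10.6 CPM in Sham (log2 fold change 0.37, adjusted p = 0.00104), a call that was lost with library totals (0.05, adjusted p = 0.492).

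Other selective receptors rose for 3 of 16 genes (18.8%, about the 19.8% of all genes) and fell for 0 in edgeR (0 lower also at an unadjusted p under 0.05, in DESeq2 and in limma-voom, beside 23.5% of all genes). Library totals gave 2 higher and 7 lower, beside 9.18% and 46.0% of all genes. Tax1bp1, whose product is recruited with p62 and NBR1 to ubiquitin-marked cargo, averaged 408 ± 47.2 CPM in CLP and 173 ± 7.60 CPM in Sham (log2 fold change 1.24, SE 0.09, adjusted p = 2.53e-06). Tollip averaged 128 ± 7.60 CPM in CLP and 88.9 ± 3.56 CPM in Sham (log2 fold change 0.52, adjusted p = 0.000143). Bnip3l, the mitophagy receptor that clears mitochondria from maturing red cells, averaged 136 ± 21.99 CPM in CLP and 91.6 ± 8.45 CPM in Sham (log2 fold change 0.57, adjusted p = 0.0017; 0.26, adjusted p = 0.0953 with library totals). The erythroid markers given above moved with the groups as well, and their part in Bnip3l was not tested. Wdfy3, the most abundant of the list, averaged 1340.5 ± 94.1 CPM in CLP and 1211 ± 45.2 CPM in Sham and did not pass (log2 fold change 0.15, adjusted p = 0.141).

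Among the kinases that act on the ULK complex or on the receptors, 2 of 12 rose and 4 fell (16.7% and 33.3%, beside 19.8% and 23.5% of all genes). Tbk1, which phosphorylates optineurin and p62, rose with the genes of both receptors, at 125 ± 19.4 CPM in CLP and 80.6 ± 5.08 CPM in Sham (log2 fold change 0.63, adjusted p = 0.00067). Prkab2, a regulatory subunit of the energy sensor AMPK, averaged 31.3 ± 4.63 CPM in CLP and 13.2 ± 3.29 CPM in Sham (log2 fold change 1.25, adjusted p = 0.000173). The 2 other AMPK subunit genes called were lower. The catalytic subunit gene Prkaa1 averaged 52.4 ± 4.47 CPM in CLP and 76.5 ± 5.02 CPM in Sham (log2 fold change -0.54, adjusted p = 0.000372), and the sister subunit gene Prkab1 averaged 22.3 ± 1.54 CPM in CLP and 33.8 ± 6.84 CPM in Sham (log2 fold change -0.60, adjusted p = 0.00363), both without overlap between the groups and both named after their values were seen. Mlst8, a subunit of mTOR complexes, averaged 6.87 ± 1.28 CPM in CLP and 18.5 ± 1.27 CPM in Sham (log2 fold change -1.43, adjusted p = 2.68e-05).

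**Figure D5:**
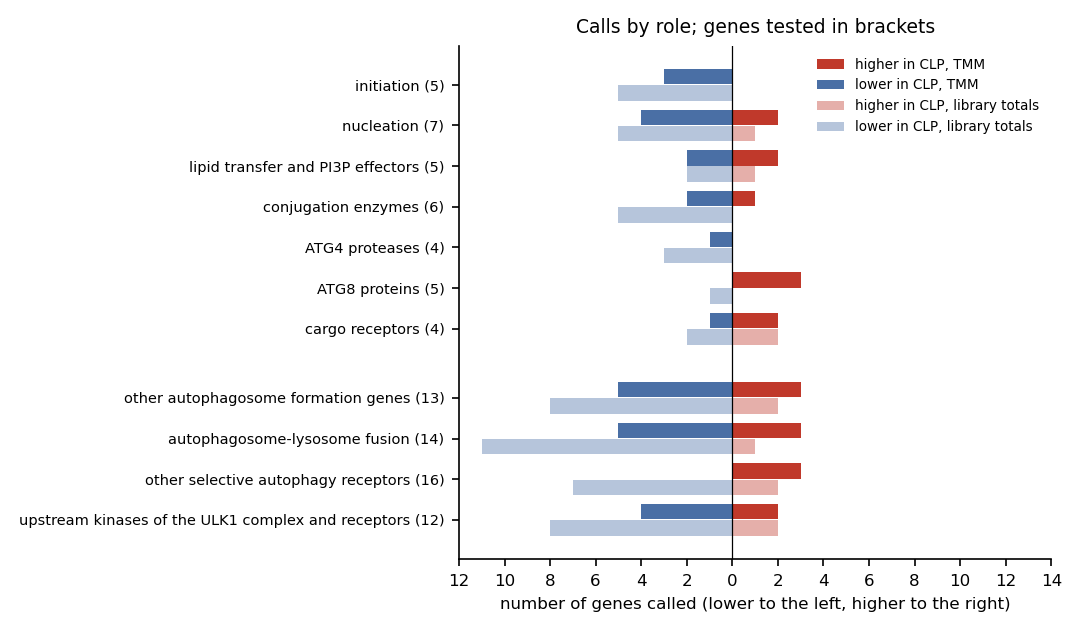
Number of genes called lower (bars to the left) and higher (bars to the right) in CLP at an adjusted p of 0.05, by member role above and by further pathway list below, with TMM scaling and with library totals. The initiation genes have 0 higher and 3 lower of 5 with TMM, the ATG8 genes 3 higher and 0 lower of 5, and with library totals the ATG8 genes have 0 higher.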

How the data were processed

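RNA-seq counts of sorted red pulp macrophages, 4 CLP and 4 Sham libraries, were used, with group and replicate number read from each title. The authors deposited 1 table of raw read counts by Ensembl gene. FastQC, STAR 2.7.10b, featureCounts, DESeq2 and the build mm39 stand without roles in the submitters' processing notes. The sources used here do not give the annotation release or the strand setting of the counting. Libraries were stranded TruSeq, per the labels' protocols.

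Symbols and exon lengths came from GENCODE mouse release 21. The main test was edgeR 4.0.16 (R 4.3.3): filterByExpr, TMM, robust quasi-likelihood F-test on 2 groups, no covariates, Benjamini-Hochberg adjustment over 14004 genes, threshold 0.05. SE was taken as the size of the log2 fold change over the root of F. Pair ratios had 0.5 added to each count. No 2 libraries of a group agreed within sampling noise (lowest chi-square over degrees of freedom 8.48). Promoter windows came from RefSeq (GRCm38.p6). Single-library values were given for called members that changed by 0.5 or more on the log2 scale, the most abundant member of each role, the ATG8 genes and the cargo receptors. From each further list, the 3 largest called changes at a mean of 5 CPM upward and the most abundant gene were named. The members, lists and tests were chosen with earlier results of these data known. The edgeR step was tested on simulated data. Alternatives used DESeq2 1.42.0, limma 3.58.1, sva 3.50.0, other scalings and filters, a replicate block and left-out libraries.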

Additional observations from a re-analysis of the deposited data

Results flagged for a closer look

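In 8 of 100 sets of 4 libraries (1 gene in 1 group), 1 library stood apart from the others by Dixon's criterion, which chance alone meets in about 1 set in 20. In CLP, Atg2b was at 46.1 CPM in replicate 2, against 42.7 to 43.0 CPM in the other CLP libraries. Atg4b was at 41.5 CPM in CLP replicate 3, against 30.7 to 32.2 CPM in the others, and without that library Atg4b was called lower in CLP. In Sham, Uvrag was at 177 CPM in replicate 4, against 240 to 248 CPM in the others, and its rise in CLP held without that library. Pik3r4 was at 52.0 CPM in Sham replicate 3, against 60.7 to 62.3 CPM in the others. Atg101 was at 11.4 CPM in Sham replicate 1, against 12.8 to 13.0 CPM in the others, and Atg2a at 97.5 CPM in Sham replicate 2, against 88.0 to 89.5 CPM. Of the further genes, Tollip was at 94.3 CPM in Sham replicate 1, against 86.8 to 87.6 CPM, and Mlst8 at 16.6 CPM in Sham replicate 1, against 18.9 to 19.3 CPM in the other Sham libraries.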

How the results depend on the processing

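DESeq2, limma-voom, DESeq2 size factors and a filter at 1 CPM changed no call of the 36 members. The surrogate variable changed none either. With library totals 1286 genes were higher and 6435 lower, and 4 members were higher and 23 lower. There the log2 fold change turned for Becn1 (-0.05), Atg7 (-0.06) and Gabarap (-0.06), which were then not called, for Gabarapl1 (0.00), for Map1lc3a (-0.07, called with neither scaling), and for Atg3 (-0.29, adjusted p = 0.00712) and Atg12 (-0.25, adjusted p = 0.0283), which were called lower. Upper-quartile factors ended the calls of Gabarap and Gabarapl1 and added Atg4b, and leaving out the filter on low counts ended those of Atg7 and Gabarapl2. With 1 library left out at a time, 7 to 10 members were higher and 10 to 14 lower, and over all genes 2310 to 2847 were higher and 2639 to 3458 lower. The calls of 17 of the 23 members held in all 8 of these fits. Without both Sham replicate 4 and CLP replicate 3, the libraries farthest from the rest of their groups and chosen after seeing the data, 9 members were higher and 14 lower: Becn1 lost its call (adjusted p = 0.0520) and Atg4b was called lower (adjusted p = 0.0204). The labels do not say whether a replicate number pairs a CLP with a Sham library. Deviations of same-numbered libraries correlated at 0.074, -0.038, 0.261 and -0.192, and only library 3 correlated best with its own number. So few values cannot show whether libraries were paired. With a replicate block 10 members were higher and 13 lower, and 2799 and 3290 of all genes. For the ratios of pairs, the sign-flip test within numbers cannot go below an exact p of 0.125, nor the permutation test with a library left out below 0.0571, so neither says anything about stability. Levels per kilobase of the longest transcript in place of all exons left Sqstm1 highest, Wipi1 lowest and the most abundant gene of each role as it was, but put Map1lc3b at 20.97 CPM per kb (11.5 over all exons), next to Map1lc3a at 22.3. Members with few reads, such as Wipi1 with 70 to 182 reads a library, carry the largest counting error.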
